A study of Homo sapiens with 9 samples.

Results

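The genes described here are 10 outputs and feedback regulators of the RAS-ERK pathway: the dual-specificity phosphatases DUSP4, DUSP5 and DUSP6, the Sprouty genes SPRY2 and SPRY4, the Sprouty-related genes SPRED1 and SPRED2, the ETS transcription factors ETV4 and ETV5, and PHLDA1. They were chosen by name as transcripts known to follow ERK activity, and all 10 were measured, among 18239 genes in all. Each gene was read from the probe set that named exactly 1 gene symbol and had the highest mean over all arrays, and its other probe sets served as a check. The study used K562, an established human leukaemia line driven by the BCR-ABL fusion kinase. The cells were transduced with a retrovirus that carried calreticulin (CALR) in its wild-type form, in the Del52 form or in the Ins5 form, so every group, the wild-type group included, received a CALR construct. Transduction took 4 infection cycles 12 h apart, transduced cells were selected by their NGFR surface marker, and purity 48 h after selection was above 90% per the labels. Culture after transduction lasted 36 h, and 100000 cells were used for RNA, in all groups alike. Each group had 3 arrays, and nothing in the labels says whether replicates came from separate cultures, so p-values measure the spread between these samples, which may be technical.

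In the RAS-ERK cascade, active receptors or kinases load RAS with GTP, and RAF, MEK and ERK are then phosphorylated in turn. ERK switches on a set of genes that act back on the cascade: DUSP proteins remove phosphate from ERK, Sprouty and SPRED proteins restrain the pathway at the level of RAS and RAF, and ETV4 and ETV5 carry the signal into further transcription. BCR-ABL feeds this cascade through adaptor proteins such as GRB2 and GAB2. Mutant calreticulin is known from myeloproliferative neoplasms, where it activates the thrombopoietin receptor and, through it, JAK-STAT and ERK signalling.

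All values are the authors' log2 RMA values, on which a difference of 1 is a doubling of signal. Tests are contrasts of limma, a linear model with moderated variances, adjusted by Benjamini-Hochberg over all 18239 genes. Arrays have no read depth, and their number limits the precision. The line's identity was visible: 12 of 13 measured erythroid and K562 markers lay above the median gene (4.31), led by HBG1 (11.91), against 0 of 12 granulocyte and monocyte markers, 2 of 11 lymphoid markers (CD3D and PAX5) and 2 of 12 fibroblast and epithelial markers (EPCAM and CLDN4). The summed erythroid markers spanned 13.41 to 13.50 in wild type, 13.49 to 13.61 in Del52 and 13.45 to 13.50 in Ins5. The corresponding lymphoid sums were 7.85 to 8.18, 7.92 to 8.06 and 7.96 to 8.16, those of granulocytes and monocytes 6.57 to 6.60, 6.54 to 6.58 and 6.60 to 6.67, and those of fibroblasts and epithelia 8.90 to 9.17, 9.10 to 9.22 and 8.98 to 9.13. Their part in the values of the ERK genes was not tested. CALR itself read 7.57 ± 0.24 in the wild-type group, 7.42 ± 0.18 with Del52 and 7.40 ± 0.12 with Ins5 (SD, n = 3), and NGFR read 3.36 to 3.43 as group means. Of the variance of all genes together, 70.5% fell on principal component 1 (the first component), along which all 3 groups overlapped, with wild-type replicates 2 and 3 at its ends (scores 0.57 and -0.57), and 10.0% fell on the second, with Del52 replicate 1 at its low end (-0.79) and wild-type replicate 1 at its high end (0.51).

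None of the 10 genes separated the constructs. In Del52 against wild type 8 of 10 had lower means, with a median log2 fold change of -0.17, where 45.4% of all genes were lower and the median of all genes was 0.01; DUSP5, at 0.0022, lay below 0 under quantile normalization or median centring. In Ins5 against wild type 8 of 10 had higher means, where 59.6% of all genes were higher and 40.4% lower. The median of the 10 was 0.05 only, against 0.02 for all genes. SPRY2 lay below 0 under either scaling and DUSP4 under median centring. Within every one of the 10 genes the 3 arrays of a group overlapped those of both other groups. The share of a gene's variance that lay between groups ran from 4.64% (SPRY2) to 39.1% (SPRED1), where the median of all genes was 21.3%. The median gene of the 10 spanned 0.60 over the 9 arrays, against 0.32 for the median of all genes.

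**Figure D1:**
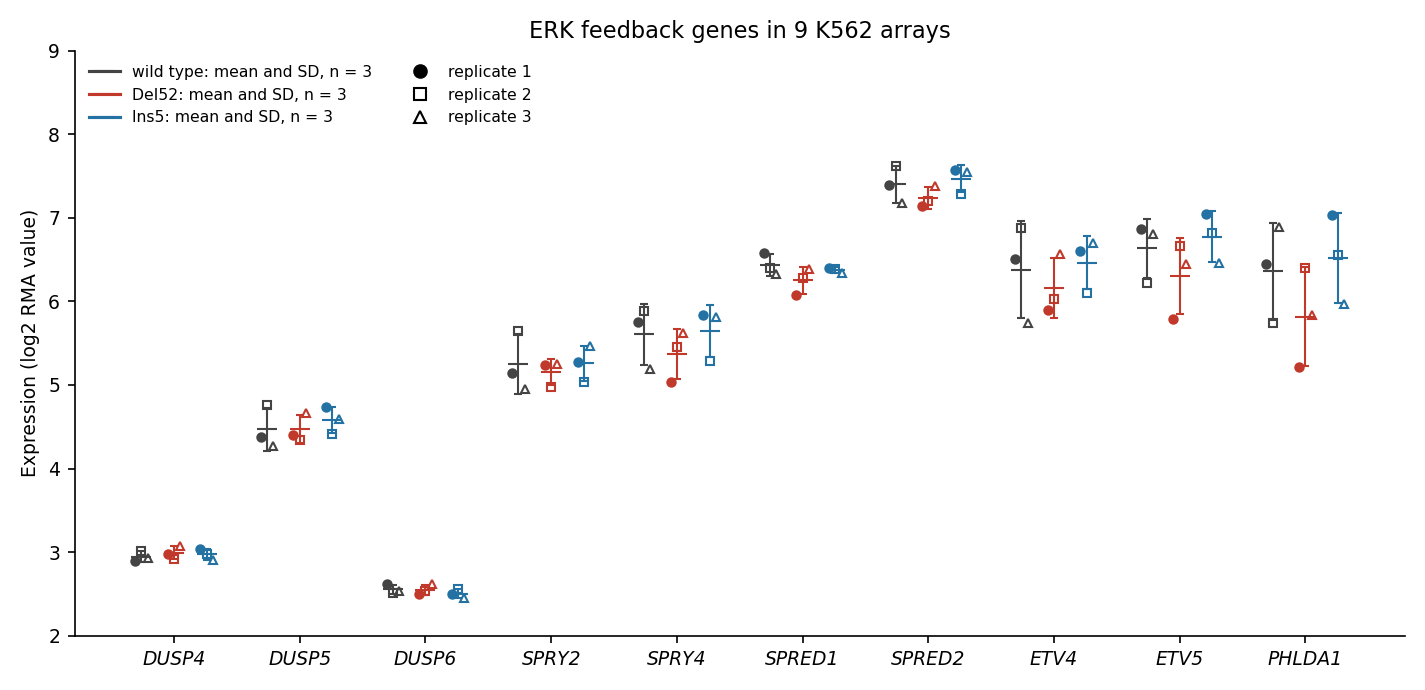
Log2 RMA values (vertical axis) of the 10 ERK feedback genes (horizontal axis) in each of 9 arrays, with the mean and SD of 3 arrays per construct. Symbols mark replicates 1 to 3. In every gene the groups overlap, DUSP4 and DUSP6 are low and flat, and PHLDA1 has the widest spread, from 5.21 to 7.04.

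The phosphatases were the dimmest of the set. DUSP6, the cytoplasmic phosphatase that acts on ERK itself and a widely used readout of ERK output, was at 2.61, 2.51 and 2.54 in wild type, 2.50, 2.54 and 2.62 in Del52, and 2.50, 2.56 and 2.45 in Ins5. Its mean level was at percentile 13.3 of all genes. The 23 nonspecific control probe sets had means from 1.56 to 6.35 with a median of 2.01, a span that also holds the mean levels of DUSP4, DUSP5, SPRY2, SPRY4, ETV4 and PHLDA1, with SPRED1 at its edge. The other 3 DUSP6 probe sets were dimmer still, with means over the 9 arrays of 2.32, 2.15 and 1.92, and 1 of them correlated with the brightest at r = -0.61 over the 9 arrays (2 others at 0.26 and -0.41). DUSP4, a nuclear phosphatase of ERK and its relatives, read 2.89, 3.01 and 2.93 in wild type, 2.98, 2.92 and 3.08 in Del52, and 3.04, 2.98 and 2.90 in Ins5, a span of 0.19 in all. Only DUSP5, a nuclear phosphatase specific for ERK, was above the median gene. It read 4.38, 4.76 and 4.27 in wild type, 4.41, 4.35 and 4.66 in Del52, and 4.74, 4.42 and 4.59 in Ins5. Both its highest and its lowest array were wild type, and its group means differed by at most 0.11.

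The Sprouty genes were expressed at a middle level and varied widely between replicates. SPRY2, which blocks receptor signalling to RAS, read 5.14, 5.65 and 4.95 in wild type, 5.24, 4.97 and 5.25 in Del52, and 5.27, 5.04 and 5.46 in Ins5. Wild type again held both the highest and the lowest array, 0.70 apart (1.62-fold), while the means of the 3 groups lay between 5.15 and 5.26. SPRY4, which restrains RAF activation, read 5.75, 5.88 and 5.19 in wild type, 5.04, 5.46 and 5.62 in Del52, and 5.84, 5.28 and 5.82 in Ins5. Its lowest array was Del52 replicate 1, followed by wild-type replicate 3, and its mean in Del52 was lower than in wild type by 0.24 ± 0.24 (SE) without passing the test (limma adjusted p = 0.931).

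Promoter windows were matched in the RefSeq table of GRCh38.p14 for 6 of the 10 genes (DUSP6, SPRY2, SPRY4, SPRED1, SPRED2 and PHLDA1), not for DUSP4, DUSP5, ETV4 and ETV5. The 250 bases upstream of the outermost start site are shown for SPRY2 and SPRY4, because these relatives moved together over the arrays (r = 0.637, and 0.421 without wild-type replicates 2 and 3), and for PHLDA1, because its values as deposited ran against those of SPRY2 (r = -0.52, and -0.31 without those 2 arrays), though not of SPRY4 (r = 0.14). With the first component subtracted, SPRY2 had r = 0.327 with SPRY4 and 0.497 with PHLDA1. All 3 are read 5′ to 3′ on the gene's strand, and capitals mark a match to the short ETS core CCGGAA on either strand, of which the SPRY4 stretch has none.
SPRY2 (chr13:80341127-80341376, minus strand): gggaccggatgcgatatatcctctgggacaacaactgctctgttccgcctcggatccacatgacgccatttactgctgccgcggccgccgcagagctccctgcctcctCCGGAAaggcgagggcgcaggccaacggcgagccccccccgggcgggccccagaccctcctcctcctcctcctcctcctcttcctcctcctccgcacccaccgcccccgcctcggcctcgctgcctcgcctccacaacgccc
SPRY4 (chr5:142324248-142324497, minus strand): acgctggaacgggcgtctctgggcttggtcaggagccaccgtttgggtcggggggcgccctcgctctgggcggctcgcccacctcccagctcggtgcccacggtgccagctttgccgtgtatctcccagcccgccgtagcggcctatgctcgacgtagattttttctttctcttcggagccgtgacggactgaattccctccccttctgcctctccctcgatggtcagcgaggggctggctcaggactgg
PHLDA1 (chr12:76031777-76032026, minus strand): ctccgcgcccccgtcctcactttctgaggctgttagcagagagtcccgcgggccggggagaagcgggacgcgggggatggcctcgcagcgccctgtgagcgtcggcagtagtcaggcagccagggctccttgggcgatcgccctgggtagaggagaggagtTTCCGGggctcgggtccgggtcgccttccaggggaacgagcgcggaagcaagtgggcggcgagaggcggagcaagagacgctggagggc
These stretches had a GC content of 70.4%, 65.6% and 70.4%, above the median of 58.0% over all 35116 windows of the table, and held 23, 22 and 26 CpG dinucleotides against a median of 11. In the 9 full windows (250 bases before to 50 after a start site) of the 6 genes, both strands were searched for motifs of factors downstream of ERK. The octamers TGAATGAA and TGAATGGA of CIC, a repressor that ERK relieves, were found in 0 of 9 (1.65% and 1.03% of all windows), as were the ETS core CCGGAAGT (4.14%), the STAT site TTCNNNGAA (7.66%) and the CArG box of SRF (1.29%). The AP-1 site TGANTCA was in 1 window, the inner start site of SPRED2 (7.71% of all windows). Shorter forms, chosen after the longer ones gave no match and contained in them, were CCGGAA in 2 windows (SPRY2 and PHLDA1, 17.2% of all) and TGAATG in 2 (DUSP6 and the inner SPRED2 window, 11.8%). A match is a description of letters in these windows, and its absence says nothing about the factor.

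The SPRED genes were brighter and steadier. SPRED1, which brings neurofibromin to RAS at the membrane, read 6.58, 6.40 and 6.33 in wild type, 6.08, 6.28 and 6.39 in Del52, and 6.40, 6.39 and 6.34 in Ins5. The Del52 mean was 6.25 ± 0.16 and the wild-type mean 6.44 ± 0.13 (SD, n = 3), lower by 0.19 ± 0.09 (SE) on the log2 scale. This was the smallest p of the 10 genes against wild type, unadjusted p = 0.0756 and adjusted p = 0.748 by limma, with a 95% interval from -0.40 to 0.02. The lowest arrays were Del52 replicates 1 and 2, but Del52 replicate 3 (6.39) lay above wild-type replicate 3 (6.33). SPRED2, its close relative and the brightest of the set, read 7.40, 7.63 and 7.17 in wild type, 7.14, 7.20 and 7.39 in Del52, and 7.57, 7.28 and 7.55 in Ins5. Its difference between the mutants was -0.23 ± 0.13 (SE, Del52 minus Ins5; limma adjusted p = 0.952), and Del52 replicate 3 lay above Ins5 replicate 2.

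The 2 ETS factors had similar levels and differed in their replicates. ETV4 read 6.51, 6.88 and 5.74 in wild type, 5.89, 6.03 and 6.57 in Del52, and 6.60, 6.10 and 6.70 in Ins5. ETV5 read 6.87, 6.22 and 6.81 in wild type, 5.79, 6.66 and 6.44 in Del52, and 7.05, 6.82 and 6.46 in Ins5. Wild-type replicate 2 held the highest ETV4 of the 9 arrays and the second-lowest ETV5, and wild-type replicate 3 held the lowest ETV4 with an ETV5 above the mean. Between these 2 arrays of the same group ETV4 differed 2.20-fold and ETV5 1.5-fold the other way. Against this spread, Del52 minus wild type was -0.22 ± 0.31 (SE) for ETV4 (limma adjusted p = 0.975) and -0.33 ± 0.27 for ETV5 (adjusted p = 0.896). ETV1, the third member of their subfamily and not 1 of the 10, was at 6.36, 5.99 and 6.01 in wild type, 4.98, 5.63 and 5.89 in Del52, and 6.10, 5.82 and 5.54 in Ins5. All 3 Del52 arrays of ETV1 lay below all 3 wild-type arrays (log2 fold change -0.62 ± 0.24 SE, limma unadjusted p = 0.0356, adjusted p = 0.667), a pattern that 4.36% of all genes had in this direction.

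PHLDA1, a pleckstrin homology-like protein induced by ERK, had the widest range of the set. It read 6.45, 5.74 and 6.89 in wild type, 5.21, 6.40 and 5.84 in Del52, and 7.04, 6.56 and 5.97 in Ins5. From the lowest array, Del52 replicate 1, to the highest, Ins5 replicate 1, the signal differed 3.55-fold, a range wider than in 98.8% of all genes. The wild-type mean was 6.36 ± 0.58, the Del52 mean 5.82 ± 0.59 and the Ins5 mean 6.52 ± 0.54 (SD, n = 3). Del52 minus wild type was -0.54 ± 0.41 (SE; limma adjusted p = 0.880), with a 95% interval from -1.49 to 0.41. Del52 minus Ins5 was -0.71 ± 0.41 (adjusted p = 0.952), with an interval from -1.66 to 0.25.

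Across the contrasts, 0 of 10 genes passed at an adjusted p under 0.05 in Del52 against wild type, in Ins5 against wild type and in Del52 against Ins5, where 0% of all genes passed in each (limma). At an unadjusted p under 0.05 the count was also 0 of 10 in each, against 7.05%, 7.41% and 5.77% of all genes. In Del52 against wild type that count was 1 on leaving out Del52 replicate 3 or wild-type replicate 3, 1 with the mean of all probe sets, 1 without wild-type replicates 2 and 3 together, and 2 with the first component as a covariate, which gave 3 between the mutants; array weights moved it too. Groups without overlap, higher or lower, were also found for 0 of 10 genes. Over all genes 6.23% lay higher and 4.36% lower without overlap in Del52 against wild type. The shares were 8.16% higher and 3.3% lower in Ins5 against wild type, and 3.81% higher and 6.28% lower in Del52 against Ins5. With both mutants averaged and set against wild type, 8 of 10 genes were lower (42.1% of all genes; median -0.05), and the count was 0 of 10 at either threshold (0% and 7.97% of all genes, the latter 5.07% higher and 2.91% lower), and in the moderated F test over the 3 groups it was 0 of 10 (0% and 7.23%), with SPRED1 lowest (unadjusted p = 0.177). The comparisons against wild type share the same 3 control arrays.

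**Figure D2:**
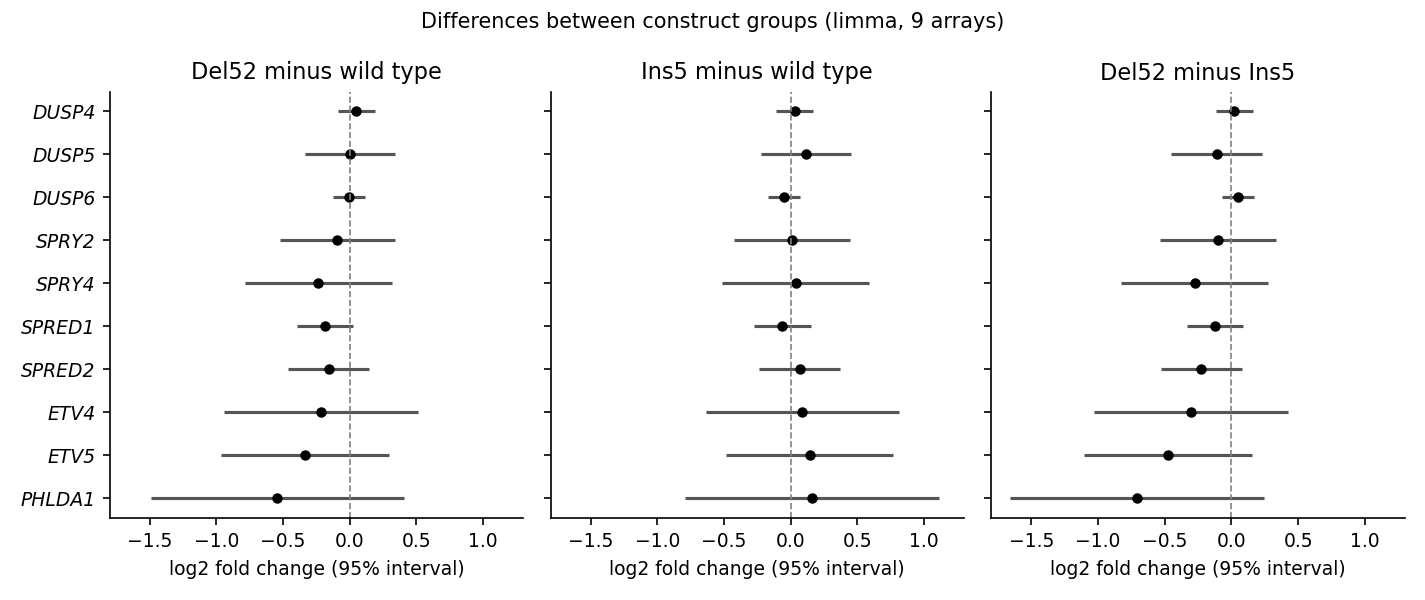
Log2 fold change (horizontal axes) with its 95% interval for each of the 10 genes (vertical axis) in 3 limma contrasts over 9 arrays. Every interval includes 0, and the widest is that of PHLDA1, from -1.49 to 0.41 in Del52 minus wild type.

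The size of the set's shift, and in Ins5 against wild type its sign, moved with single arrays. In Del52 against wild type the median was -0.08 when Del52 replicate 1 was left out and -0.04 when wild-type replicate 2 was, and -0.24 without either Del52 replicate 3 or wild-type replicate 3. The count of genes with lower means, 8 of 10 with all arrays, was 7 in the first of these cases, 6 in the second and 9 in both others. In Ins5 against wild type the median of 0.05 became -0.05 (4 of 10 higher) on leaving out wild-type replicate 3, 0.12 on leaving out replicate 2 of that group and 0.13 on leaving out Ins5 replicate 2, and 5 of 10 genes were higher without Ins5 replicate 1 or Ins5 replicate 3 (median 0.00079 and 0.00083). In Del52 against Ins5 8 of 10 genes were lower (54.6% of all genes), with a median of -0.18. That median became -0.13 without Del52 replicate 1, -0.14 without Ins5 replicate 1, -0.25 without Del52 replicate 3 and -0.27 without Ins5 replicate 2.

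The values over the 9 arrays were set against the first 2 principal components of all genes. On the first principal component SPRY2, ETV4, DUSP5, SPRED2 and SPRY4 ran one way, with r = 0.94, 0.80, 0.78, 0.68 and 0.58, and PHLDA1 and ETV5 ran the other way, with r = -0.69 and -0.57. SPRED1 had r = 0.03. The actin 3-prime minus 5-prime difference, a control of RNA quality, moved only in part with this component. It was lowest (1.08) in wild-type replicate 2, the array with the highest score. In wild-type replicate 3, Del52 replicate 2 and Ins5 replicate 2, the 3 arrays with the lowest scores, it was 1.31, 1.33 and 1.38. Its highest value (1.39) was in wild-type replicate 1, at a score of -0.05. Del52 replicate 1, at a score of 0.11, had 1.18. Ins5 replicate 3 and Del52 replicate 3, at scores of 0.30 and 0.27, both had 1.24. The part of the actin difference in these values was not tested. The first component held 88.2% of the variance of SPRY2 and 0.106% of that of SPRED1, against 31.1% for the median of all genes. These correlations, over 9 arrays that share their normalization and their main axis, are given as descriptions and without a p.

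**Figure D3:**
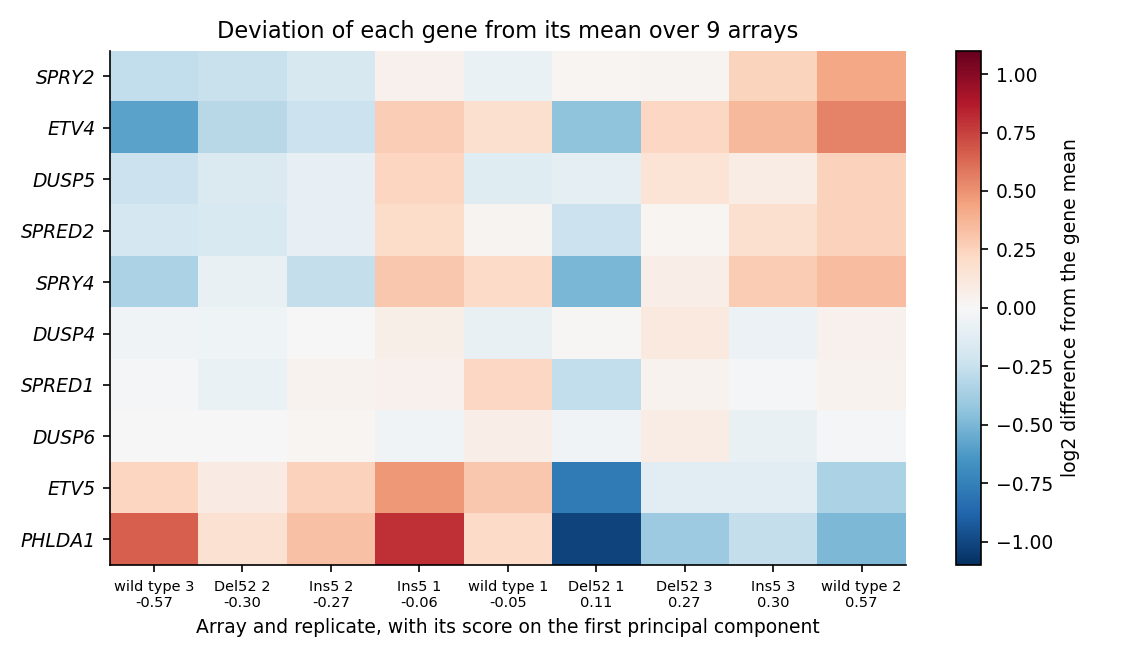
Difference of each gene from its own mean (colour, log2) for the 10 genes (rows) in 9 arrays (columns), ordered by the array's score on the first principal component. From left to right SPRY2, ETV4, DUSP5, SPRED2 and SPRY4 go from low to high and ETV5 and PHLDA1 from high to low, while Del52 replicate 1 is low in SPRY4, SPRED1, SPRED2, ETV4, ETV5 and PHLDA1.

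The second component joined genes that the first one set apart. Its largest scores were those of Del52 replicate 1 (-0.79) and wild-type replicate 1 (0.51), and the other arrays scored from -0.12 to 0.28. The correlations with it therefore rest mainly on these 2 arrays and were not computed without them. SPRED1 followed the second component with r = 0.96, ETV5 with 0.76, SPRY4 with 0.74, PHLDA1 with 0.63, SPRED2 with 0.61 and ETV4 with 0.56. It held 91.5% of the variance of SPRED1 and 57.5% of that of ETV5, against 6.15% for the median of all genes, and SPRED1 stood at the 99.9th percentile of all genes in r. SPRY2 (0.09), DUSP5 (0.26), DUSP4 (-0.13) and DUSP6 (0.33) followed it little. Both components together held 96.0% of the variance of ETV4 and 91.6% of that of SPRED1, but 15.6% of that of DUSP6 and 18.2% of that of DUSP4. Del52 replicate 1, which had the lowest score on this component, was the lowest of the 9 arrays in SPRY4, SPRED1, SPRED2, ETV5 and PHLDA1 and the second-lowest in ETV4. Its actin difference was 1.18, the second-lowest after wild-type replicate 2, and the other arrays but that one had 1.22 to 1.39.

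ETV4 and ETV5 show both directions at once. As deposited, their values were unrelated over the 9 arrays (Pearson r = 0.03, Spearman rho = -0.05). After the first component was subtracted from each gene, r was 0.989, and it was 0.963 without Del52 replicate 1, the array farthest out. In these residual values Del52 replicate 1 was at -0.54 for ETV4 and -0.72 for ETV5, Ins5 replicate 1 at 0.32 and 0.45, and wild-type replicate 1 at 0.22 and 0.27, while the 6 other arrays lay between -0.07 and 0.08 for ETV4. These residual values followed the second component at r = 0.942 for ETV4 and 0.92 for ETV5, as did those of SPRY4 (0.913) and PHLDA1 (0.864). High residual r values among these genes therefore follow in part from that component, which comes from the same 9 arrays. Subtracting the first component took ETV4 and PHLDA1 from r = -0.14 to 0.951 (0.865 without Del52 replicate 1), and SPRY4 and PHLDA1 from 0.14 to 0.908 (0.740). ETV5 and PHLDA1 were close with or without it (r = 0.958 and rho = 0.933 as deposited, 0.922 without the 2 arrays farthest from the median of ETV5, Del52 replicate 1 and wild-type replicate 2; 0.950 after subtraction). ETV4 and SPRED2 were also close both ways (r = 0.954, rho = 0.950 and 0.925 without Del52 replicate 1 and wild-type replicate 2; 0.930 after subtraction), as were SPRY4 and SPRED2 (r = 0.932, rho = 0.983, and 0.890 without Del52 replicate 1 and wild-type replicate 3). Within groups, on deviations from each group's mean, ETV4 and SPRED2 had r = 0.976 and ETV5 and PHLDA1 r = 0.941, while ETV4 and PHLDA1 had r = -0.41. Of the 45 pairs among the 10 genes, 32 had a positive r and 13 a negative one. Neither this count nor the r values after subtraction were computed over pairs of all genes, so how common they are is not known.

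**Figure D4:**
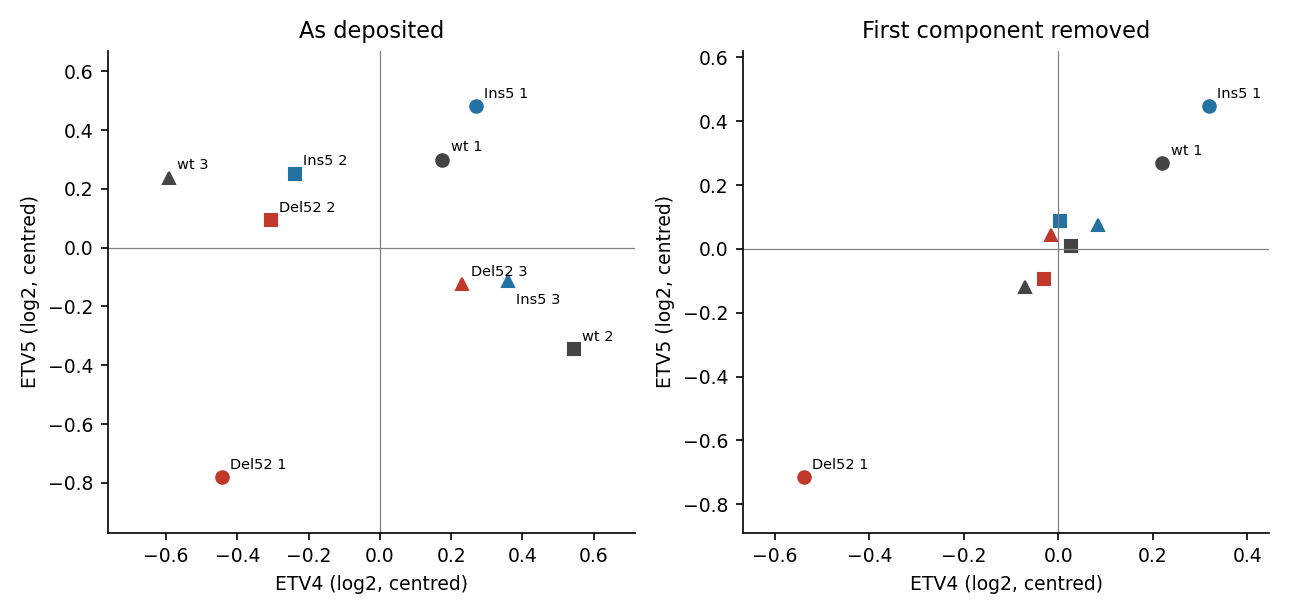
ETV4 (horizontal axis) against ETV5 (vertical axis), each centred on its mean in log2 units, with 1 point per array; colour marks the construct (grey wild type, red Del52, blue Ins5) and shape the replicate. The points scatter as deposited (left, r = 0.03) and lie along a line once the first principal component is subtracted (right, r = 0.989), with Del52 replicate 1 lowest and Ins5 replicate 1 highest and only the outlying arrays labelled.

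The 10 genes had 28 probe sets with 1 symbol, and how far the others repeated the brightest one differed between genes. The second ETV4 set followed the first at r = 0.953, the 3 further ETV5 sets at 0.985, 0.843 and 0.634, and the 3 further PHLDA1 sets at 0.980, 0.826 and 0.769. The 4 further SPRED1 sets followed theirs at 0.964, 0.780, 0.447 and 0.391, and the 2 of SPRED2 at 0.837 and 0.562. SPRED1 was the gene whose sets differed most in size: in Del52 minus wild type the brightest had -0.19, 3 others -0.32, -0.44 and -0.45, and 1 had 0.01. The set at -0.44 ± 0.12 (SE) had the smallest p of any set of the 10 genes (limma unadjusted p = 0.00712, adjusted p = 0.634 over all 45253 probe sets). A dim DUSP6 set, at a mean of 2.23 in Del52 and 2.09 in wild type, had 0.14 ± 0.04 (unadjusted p = 0.00915, adjusted p = 0.634) in the opposite direction to its other 3 sets. For SPRY4, 2 dim sets (r = -0.44 and 0.01 with the brightest) did not repeat it. In Ins5 minus wild type SPRED2 had 0.07 in its brightest set and -0.14 and -0.20 in the others, none past the threshold.

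**Figure D5:**
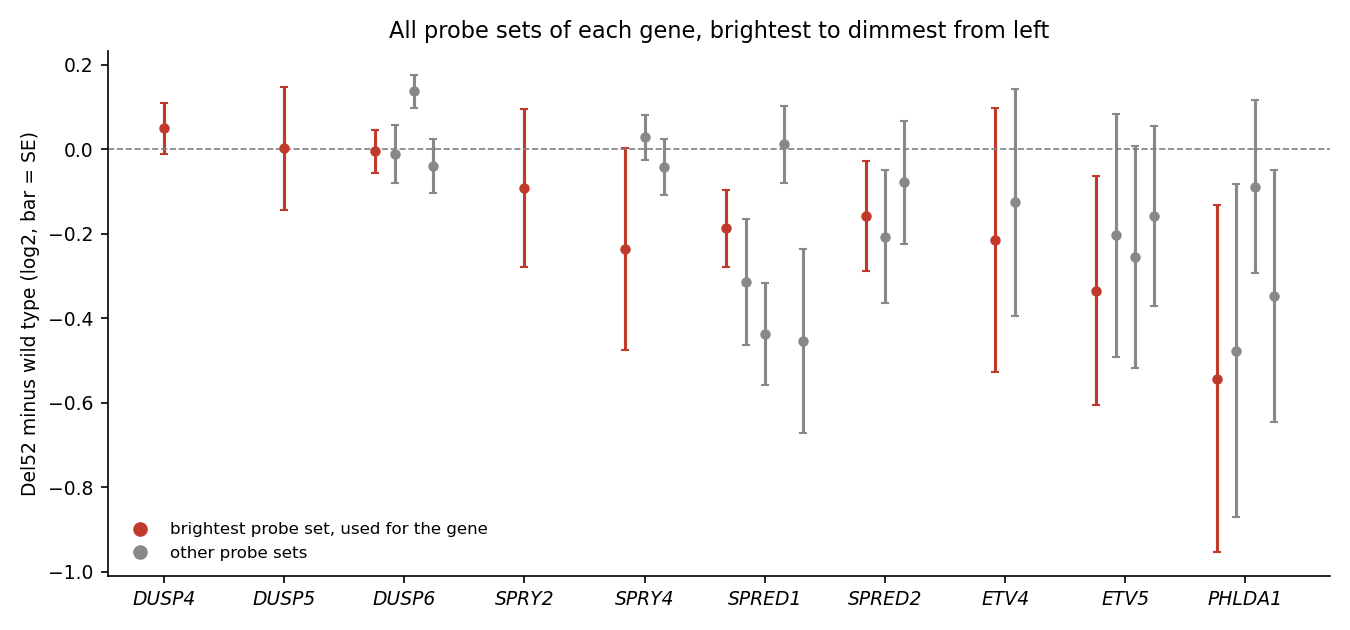
Del52 minus wild type (vertical axis, log2, bars show SE) for all 28 probe sets of the 10 genes (horizontal axis), ordered from brightest to dimmest within a gene; red marks the set used for the gene. SPRED1, SPRED2, ETV4, ETV5 and PHLDA1 have values below 0 in all sets except 1 of SPRED1 (0.01).

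The wider pathway was read from 3 lists, of which 0 genes passed at an adjusted p under 0.05 in any contrast (limma). Relatives of the 10 genes (other DUSP, Sprouty, SPRED, ETV and PHLDA genes, 13 of 13 measured) had a median of 0.01 in Del52 and 0.08 in Ins5 against wild type. Leaving out any 1 of the 6 arrays compared moved the first, to between -0.02 (Del52 replicate 3) and 0.04, and the second was 0.03 without wild-type replicate 2 and 0.04 without Ins5 replicate 3. At an unadjusted p under 0.05 they held 1 higher and 1 lower gene in Del52, PHLDA3 (0.19), which inhibits AKT, and ETV1, where 4.1% of all genes were higher and 2.95% lower at that level. In Ins5 PHLDA3 (0.15) was the 1 higher gene of the 13 and 0 were lower (5.15% and 2.25% of all genes), and SPRY1 (0.13) had the next smallest p. Between the mutants DUSP10, a phosphatase of JNK and p38, was at 5.12, 5.44 and 5.38 in Del52 and 5.81, 5.56 and 5.72 in Ins5, without overlap, as in 6.28% of all genes in this direction (-0.38 ± 0.10 SE, limma unadjusted p = 0.00485, adjusted p = 0.841), and SPRY3 was at -0.14.

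Other transcripts induced by ERK (27 of 30 measured) were read next. In Del52 against wild type 19 of 27 had lower means (45.4% of all genes), with a median of -0.11, but 12 of 27 without wild-type replicate 2 (median 0.0029) and 14 of 27 without Del52 replicate 2 (median -0.06); without wild-type replicate 3 the median was -0.07. Counts at an unadjusted p under 0.05 were 3 higher and 1 lower, against 4.1% and 2.95% of all genes. SPHK1, which makes sphingosine 1-phosphate, was at 5.86, 5.83 and 5.70 in Del52 and 5.39, 5.45 and 5.68 in wild type (0.29 ± 0.08 SE, limma unadjusted p = 0.00843, adjusted p = 0.603). MCL1, a survival factor of the BCL2 family, was lower in all 3 Del52 arrays (8.89, 8.94 and 8.94) than in wild type (9.01, 9.08 and 9.02) and than in Ins5 (9.13, 9.02 and 9.08), with limma adjusted p = 0.667 and 0.841. Of all genes, 4.36% lay lower without overlap in Del52 against wild type and 6.28% in Del52 against Ins5. In Ins5 against wild type 1 of the 27 was higher and 0 lower at an unadjusted p under 0.05 (5.15% and 2.25% of all genes): EPHA4, an ephrin receptor, had 0.16, and EREG, an EGF receptor ligand, had the next smallest p at -0.08. Between the mutants 21 of 27 were lower in Del52 (54.6% of all genes), with a median of -0.10. With 1 array left out the count ran from 17 (without Del52 replicate 2) to 23 (without Del52 replicate 1). The median ran from -0.07 (without Ins5 replicate 1) to -0.14 (without Ins5 replicate 3). At an unadjusted p under 0.05, 2 were higher and 3 lower (2.22% and 3.55% of all genes), with EREG at 0.15.

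The cascade itself, from BCR and the adaptors to RAF, MEK, ERK and the factors it phosphorylates (33 of 39 measured), was close to the median of all genes, at 0.02 in Del52 and 0.04 in Ins5 against wild type and -0.0034 between the mutants. Leaving out wild-type replicate 1, 2 or 3 gave -0.00021, -0.02 or 0.01 for Del52, and leaving out Del52 replicate 2 gave 0.01. The Ins5 median was 0.02 without wild-type replicate 2 or Ins5 replicate 2, and that between the mutants was -0.02 without Ins5 replicate 3 or Del52 replicate 1, -0.012 without Del52 replicate 2 and -0.0092 without Del52 replicate 3. On the second component the median gene of this list had 8.49% of its variance, against 34.5% for the median of the 10 feedback genes. That component was set mainly by Del52 replicate 1 and wild-type replicate 1. BCR was at 4.33, 4.27 and 4.32 in wild type, 4.41, 4.48 and 4.41 in Del52, and 4.44, 4.43 and 4.45 in Ins5, so every mutant array lay above every wild-type array (0.13 ± 0.04 SE in both contrasts, limma adjusted p = 0.603 and 0.573). Of all genes, 6.23% lay higher without overlap in Del52 against wild type and 8.16% in Ins5 against wild type. SRF, a partner of ETS factors at immediate early genes, was at 0.16 in Del52 (adjusted p = 0.603), and GAB1, an adaptor, at -0.18 in Ins5 (adjusted p = 0.647). GAB2, the adaptor that links BCR-ABL to RAS, was at 6.41, 7.12 and 6.96 in Del52 and 7.67, 7.30 and 7.08 in Ins5 (-0.52 ± 0.22 SE, adjusted p = 0.860), and NF1, which switches RAS off, was at -0.32 (adjusted p = 0.952). With both mutants averaged the smallest p-values of the 3 lists belonged to PHLDA3 (0.17), SPRY1 (0.14), EPHA4 (0.14), LIF (0.11), BCR (0.13) and SRF (0.13), none past the adjusted threshold.

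Genes whose pattern over the arrays was most like that of the set were sought among 4586 genes above the median level with an SD of at least 0.15. The mean deviation of the 10 genes was matched best by NIBAN1 (r = 0.996), DAB2 (0.989), PLAUR (0.987), SLC43A1 (0.982) and FCGR2A (0.979) over 9 arrays. These are the highest r values of the 4586 candidates. The deviations were not scaled, so PHLDA1, ETV4 and ETV5 (SD 0.589, 0.40 and 0.389) weighed more in that mean than DUSP4 and DUSP6 (0.065 and 0.054). PLAUR, the urokinase receptor, is also on the list of ERK-induced transcripts. DUSP6 was matched best by LINS1 (r = 0.939), KCNMB3 (0.898), USP47 (0.874), RIF1 (0.870) and GEN1 (0.855), at values of DUSP6 that span only 0.16.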

How the data were processed

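Affymetrix arrays of 9 K562 samples (3 per construct) were deposited as log2 expression values per probe set. Per the submitters' processing notes the authors used Partek and RMA, a method that subtracts background, normalizes arrays to each other and combines the probes of a set; the sources used here give no versions or settings. Of 49386 probe sets 93 controls were left out, and 45253 with exactly 1 symbol in the platform annotation were used (1327 had several symbols, 2713 none), giving 18239 genes. Probe sets of some genes, such as those used for SPRY4, SPRED1 and ETV5, are of the type that can match more than 1 transcript.

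All genes were fitted in limma 3.58.1 (R 4.3.3) with 1 mean per group over 9 arrays (6 residual degrees of freedom) and adjusted by Benjamini-Hochberg at 0.05, two-sided. The fit was tested on simulated data. Correlations and principal components were computed in Python 3.11.15 (numpy 2.4.6), and motifs were searched in RefSeq promoter windows. All 10 genes are named, as are, per pathway list and contrast, the 2 members with the smallest p where none passed, with further genes named after their values were seen. The members and lists were chosen with earlier results of these data known. Alternatives were other normalizations, probe set rules, variance models, covariates, a replicate block and arrays left out.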

Additional observations from a re-analysis of the deposited data

How the results depend on the processing

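Over all genes, 0 passed an adjusted p under 0.05 with any 1 array left out, in any of the 4 contrasts or the F test, and the same held with the replicate number as a block, an intensity trend, median centring, 6 arrays per comparison, quantile normalization, the mean of all probe sets, only genes above the median level, every probe set on its own (no F test with 6 arrays) and without wild-type replicates 2 and 3 together, which assumes that the lone wild-type array varies like the other groups. The labels do not say whether arrays with the same replicate number were handled together. Deviations of same-numbered arrays correlated at -0.923 to 0.643. Between Del52 and Ins5 the r was 0.643 in replicate 2, 0.565 in replicate 3 and -0.555 in replicate 1. Against wild type it was negative in every replicate. The replicate block left 0 calls in each contrast. Unmoderated variances gave 2 genes in Del52 against wild type, 9 in Ins5 against wild type, 1 between the mutants, 8 for both mutants and 6 in the F test. The first principal component as covariate gave 4, 7, 0, 68 and 2. Default array weights gave 3190, 4017, 0, 6232 and 5345, but their estimate did not converge and put a weight of 67.0 on wild-type replicate 1 against 0.237 and 0.285 on the other wild-type arrays; only there did members pass (SPRED1 -0.37 and ETV5 -0.71 in Del52, DUSP5 0.27 and DUSP6 -0.11 in Ins5 against wild type). Gene-by-gene weights, added after this was seen, gave 0 throughout, and 3 members at an unadjusted p under 0.05 in Del52 against wild type and 3 between the mutants.

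Signs of small member effects changed with the setting. In Del52 against wild type DUSP5 was at -0.010 with quantile normalization, -0.0082 with median centring and -0.015 with the covariate; DUSP6 at 0.020 with the mean of all probe sets; SPRY2 at 0.043 and 0.017 with default and gene-by-gene weights and 0.0094 without wild-type replicates 2 and 3. In Ins5 against wild type SPRY2 was at -0.0065 with quantile normalization and -0.023 with median centring, DUSP4 at -0.0045 with median centring, and SPRED2 at -0.091 with the mean of all probe sets. SPRY4 was at -0.030 and -0.0095 with the weights, and without wild-type replicates 2 and 3 SPRY4, ETV4 and ETV5 were at -0.10, -0.045 and -0.093. Between the mutants DUSP4 was at -0.0053 with default weights. The cause was not tested. Leaving out 1 array in turn, Del52 against wild type ranged from -0.096 to 0.15 for DUSP5, -0.038 to 0.025 for DUSP6, -0.24 to 0.11 for SPRY2 and -0.53 to 0.036 for ETV4. Ins5 against wild type ranged from -0.0031 to 0.064 for DUSP4, -0.14 to 0.21 for SPRY2, -0.17 to 0.22 for SPRY4, -0.11 to 0.011 for SPRED1, -0.045 to 0.18 for SPRED2, -0.23 to 0.34 for ETV4, -0.063 to 0.30 for ETV5 and -0.15 to 0.44 for PHLDA1, and DUSP4 between the mutants from -0.022 to 0.057. The set's median ranged from -0.24 to -0.036 in Del52 and -0.052 to 0.13 in Ins5 against wild type, and from -0.27 to -0.13 between the mutants. The low signal of DUSP4 and DUSP6, at percentiles 26.5 and 13.3 of all genes, limits what these arrays show for both.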
